A study of Homo sapiens with 30 samples.

Results

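The integrated stress response was followed here through 10 genes: the transcription factors ATF4, ATF3, ATF5, DDIT3 (which encodes CHOP) and CEBPB, and the effectors and feedback regulators TRIB3, CHAC1, SESN2, DDIT4 and PPP1R15A. They are listed by name, as known regulators of this response. All 10 were found in each table, of 62710 genes listed for IMR32 and 57905 each for NGP and SK-N-BE(2)c, and all 10 passed the filter on low values. That filter left 17309, 14440 and 13556 genes to test in the respective lines.

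Several kinases, each answering to another form of stress, phosphorylate the translation factor eIF2alpha. General protein synthesis then falls while the ATF4 message is translated more, and ATF4 protein switches on genes for amino acid supply, for redox balance and for further transcription factors, CHOP among them. PPP1R15A directs a phosphatase back to eIF2alpha and so closes the loop, and prolonged CHOP activity is known for its link to cell death. Much of the control of ATF4, ATF5 and CHOP lies in translation, which RNA levels do not show.

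IMR32, NGP and SK-N-BE(2)c are established neuroblastoma cell lines. They were transfected by lipofection with an antisense oligonucleotide (ASO) at 100 nM, and gene counts came from RNA sequencing of cell pools. ASO1, ASO2 and ASO10 were directed at NESPR, a long non-coding RNA that the series title describes as specific to adrenergic cells and as attenuating stress, and a negative control ASO, called NCA here, served for comparison. For IMR32 there were 4 libraries with ASO1, 4 with ASO2 and 4 with NCA. For each of SK-N-BE(2)c and NGP there were 3 with ASO2, 3 with ASO10 and 3 with NCA, which makes 30 in all. No untransfected cells were among them, so every group, NCA included, carried the lipid and an oligonucleotide. The level of NESPR itself was not analysed here. For NGP as for SK-N-BE(2)c, the control column of replicate 1 is named NCA and those of replicates 2 and 3 NCA2, while the titles put all 3 in the same group. The labels do not say whether NCA2 stands for another control oligonucleotide or another batch. The labels number the libraries but do not say that they came from separate cultures, so p-values measure the spread between these libraries, which may be technical.

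Libraries held 9393587 to 15060356 reads, and those of IMR32 at most 13932379. Even so, 28268 to 32492 genes had a read per IMR32 library. SK-N-BE(2)c libraries had only 19235 to 21815 such genes, and NGP libraries 21253 to 23934. The gene list also differed for IMR32, as given above. The labels name a total RNA kit and an mRNA kit without assigning them, so the kit may have differed by line. The part of kit or gene list in the contrast with IMR32 below was not tested. The 8 adrenergic neuroblastoma markers summed for the check (HAND2, GATA3, DBH and others) were all detected in every group. Their summed normalized count was lower with both NESPR ASOs than with NCA in SK-N-BE(2)c (34284 to 38187 with ASO2 and 34914 to 37595 with ASO10, against 46311 to 52379), and in NGP (66294 to 71129 and 68149 to 71347, against 73641 to 76087). In IMR32 the sum was 44017 to 49383 with ASO1 and 46967 to 52407 with ASO2, against 50156 to 52728. The 10 mesenchymal or fibroblast markers summed to 2841 to 3681 in the IMR32 and NGP libraries. In SK-N-BE(2)c they summed to 7689 to 8334 with ASO2, 5993 to 6083 with ASO10 and 5976 to 6408 with NCA. Blood cell markers summed to at most 18.3 and endothelial markers to at most 23.7. The part of these levels in the results below was not tested, and in RNA from a pool of cells, fewer cells of a type and less RNA per cell cannot be told apart.

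Upstream sequence shows where known response elements stand next to members of this set. Of the 10 genes, ATF3, CHAC1 and PPP1R15A had a match to one of the elements searched for in the 250 bases before their RefSeq start sites (GRCh38.p14, both strands). The CARE core, TGATGNAAN, which ATF4 with a C/EBP partner is known to bind, was found in 2 of the 10 (ATF3 and CHAC1) and in 3.13% of the 35116 windows of the table. A cyclic AMP response element, TGACGTCA, was found in PPP1R15A and in 1.65% of windows. Sequence farther upstream or past the start was not searched, so a site there would be missed. Within the 250 bases, none of the 10 held TGATGCAAT, a full C/EBP-ATF site (0.216% of windows), or the ER stress element (0.074%). These searches overlap, since the full site is a special case of the core. A gene with several listed starts was counted if any of its windows matched, while the percentages count single windows, so the 2 are not on one scale. Capitals mark the match, and each line gives the plus strand, which is the strand of the gene. In CHAC1 the core lies on the other strand, at positions -210 to -202 counted from the start. In ATF3 it lies at -191 to -183 of one of the gene's 2 listed starts, and in PPP1R15A the element lies at -58 to -51. A match describes letters only, and no binding was measured.
CHAC1, chr15:40953221-40953470: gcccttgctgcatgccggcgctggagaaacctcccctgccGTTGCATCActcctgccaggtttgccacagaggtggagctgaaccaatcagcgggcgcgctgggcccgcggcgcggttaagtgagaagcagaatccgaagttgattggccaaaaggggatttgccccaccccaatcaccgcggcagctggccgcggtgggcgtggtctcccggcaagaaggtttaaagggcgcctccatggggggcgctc
ATF3, chr1:212565157-212565406: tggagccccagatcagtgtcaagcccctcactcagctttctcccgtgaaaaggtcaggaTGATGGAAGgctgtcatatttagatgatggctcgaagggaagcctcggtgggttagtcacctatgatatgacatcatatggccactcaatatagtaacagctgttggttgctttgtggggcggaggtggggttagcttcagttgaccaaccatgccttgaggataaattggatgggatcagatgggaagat
PPP1R15A, chr19:48872171-48872420: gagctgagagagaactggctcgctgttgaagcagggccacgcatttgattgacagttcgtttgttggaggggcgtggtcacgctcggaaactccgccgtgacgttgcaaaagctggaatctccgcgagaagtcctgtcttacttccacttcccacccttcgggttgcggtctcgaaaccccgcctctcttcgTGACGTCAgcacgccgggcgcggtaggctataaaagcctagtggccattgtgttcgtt

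Against NCA, nearly the whole set was higher with both NESPR ASOs in SK-N-BE(2)c and NGP, while in IMR32 a part of it moved. In NGP, 9 of 10 rose with ASO2 (30.6% of all genes tested did) and 10 of 10 with ASO10 (26.8%). All 10 rose with ASO2 in SK-N-BE(2)c (33.6% of all genes) and 10 of 10 with ASO10 (27.8%). In IMR32, 5 rose and 1 fell with ASO1 (13.6% and 14.4% of all genes), and 6 rose and 1 fell with ASO2 (17.6% and 14.8%). A gene counts as called at a limma p under 0.05 after Benjamini-Hochberg adjustment over all genes tested in that line. With all libraries rescaled to the same total, DDIT3 and CHAC1 lost their call with ASO2 in SK-N-BE(2)c. ATF3, CEBPB and PPP1R15A rose in all 6 comparisons, as did 354 of the 11594 genes tested in all 3 lines (3.05%). Both ASO groups of a line were compared with the same NCA libraries, so 2 comparisons in a line are not independent.

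The median log2 fold change of the 10 genes was 0.83 with ASO2 and 0.91 with ASO10 in NGP, and 0.73 and 0.92 in SK-N-BE(2)c. In IMR32 it was 0.23 with ASO1 and 0.28 with ASO2. The median over all genes tested lay between -0.031 and 0.0090 in these 6 comparisons. The libraries of the ASO and NCA groups did not overlap for 9 and 10 of the 10 genes in NGP (62.4% and 59.1% of all genes) and for 10 and 10 in SK-N-BE(2)c (69.3% and 64.7%). In IMR32 they did not overlap for 5 of 10 with ASO1 and 4 of 10 with ASO2 (27.6% and 30.4%). A two-sided exact permutation test gives 0.0286 for each such gene in IMR32 and 0.1 in the lines with 3 libraries a group, the smallest p-values these designs allow.

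**Figure D1:**
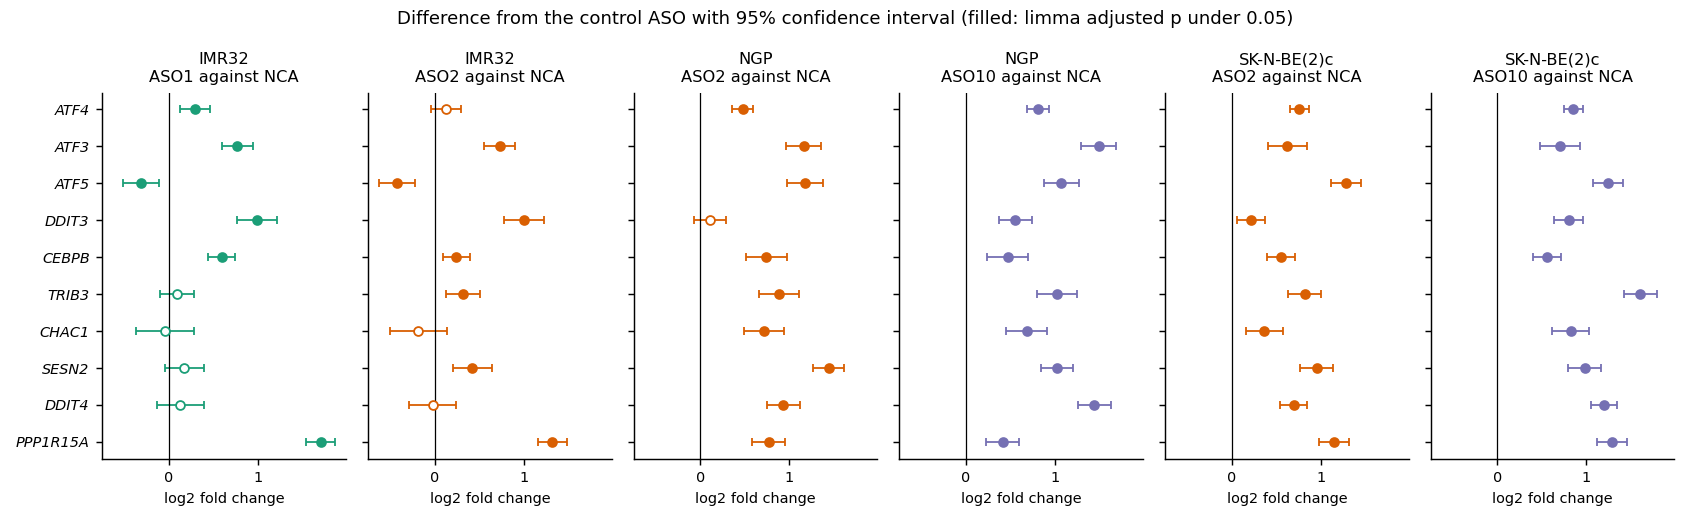
Log2 fold change against NCA (points, horizontal axis) with its 95% confidence interval (bars) for each of the 10 genes, in one panel per comparison, with filled points where the limma adjusted p was under 0.05. The points of NGP and SK-N-BE(2)c all lie to the right of 0, and those of IMR32 run from -0.42 (ATF5, ASO2) to 1.70 (PPP1R15A, ASO1).

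Among the transcription factors, ATF4 (ENSG00000128272), the central activator of the response, had the highest level per kilobase of exon of the 10 genes in every group. In NGP its normalized count was 3856, 4191 and 3419 with NCA, 5376, 5034 and 5491 with ASO2 and 6773, 6832 and 6414 with ASO10. SK-N-BE(2)c libraries gave 4579, 5099 and 4651 with NCA, 8239, 7816 and 8171 with ASO2 and 8097, 9009 and 8792 with ASO10. In both lines every library of an ASO lay above every NCA library. The log2 fold change was 0.48 (SE 0.059, limma adjusted p 1.77e-07) with ASO2 and 0.81 (SE 0.059, limma adjusted p 2.16e-11) with ASO10 in NGP. It was 0.76 (SE 0.053, limma adjusted p 5.96e-13) and 0.85 (SE 0.053, limma adjusted p 1.14e-13) in SK-N-BE(2)c. IMR32 libraries gave 3162, 2655, 2499 and 2284 with NCA, 3630.2, 3052, 3282 and 2982 with ASO1 and 3245, 2902, 2657 and 2728 with ASO2, so both ASO groups overlapped the controls. There the rise with ASO1 was 0.29 (SE 0.082, limma adjusted p 0.0101), and it missed the threshold when NCA replicate 4 was left out (0.23). With ASO2 the value was 0.13 (SE 0.082, limma adjusted p 0.252), and without NCA replicate 1 it was 0.22 and called.

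ATF3 (ENSG00000162772), a stress-inducible factor of the same bZIP family, rose in every comparison. NGP libraries gave 180.3, 237 and 189.7 with NCA, 456, 432 and 463 with ASO2 and 552, 559 and 586 with ASO10. The values in SK-N-BE(2)c were 151, 193 and 173 with NCA, 272, 244 and 279.5 with ASO2 and 282, 274 and 283 with ASO10. IMR32 had 491, 382, 389 and 357 with NCA, 664, 676, 717 and 683 with ASO1 and 574, 724, 668 and 711 with ASO2. In no line did an ASO library reach down to its controls. The rise was 2.23-fold and 2.8-fold with ASO2 and ASO10 in NGP (log2 1.16, SE 0.097, limma adjusted p 2.29e-10, and 1.49, SE 0.097, limma adjusted p 2.8e-12). In SK-N-BE(2)c it was smaller, at log2 0.63 (SE 0.11, limma adjusted p 1.05e-05) and 0.71 (SE 0.11, limma adjusted p 2.64e-06). In IMR32 it was 0.77 (SE 0.084, limma adjusted p 9.11e-07) with ASO1 and 0.73 (SE 0.084, limma adjusted p 2.53e-06) with ASO2.

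ATF5 (ENSG00000169136), another bZIP factor under translational control in this response, was the one gene of the set with a called change in both directions. It stood at 1144, 1257 and 835 with NCA in NGP, at 2607, 2185 and 2434 with ASO2 and at 2261, 2338 and 2108 with ASO10. The corresponding values in SK-N-BE(2)c were 2101, 2491 and 1849, then 5569, 4822 and 5195, then 4524, 5707 and 4957. All ASO libraries of these lines were above all controls. The log2 fold changes were 1.176 (SE 0.096, limma adjusted p 1.45e-10) and 1.07 (SE 0.096, limma adjusted p 8.16e-10) in NGP, and 1.28 (SE 0.080, limma adjusted p 6.94e-14) and 1.24 (SE 0.080, limma adjusted p 2.86e-13) in SK-N-BE(2)c. In IMR32 the order was the opposite, with 451, 409.5, 349 and 348 with NCA, 322, 288, 317 and 321 with ASO1 and 252, 320.1, 339 and 256 with ASO2. Both ASO groups lay below the controls without overlap. The fall was -0.42 (SE 0.097, limma adjusted p 0.00255) with ASO2 and -0.31 (SE 0.097, limma adjusted p 0.0205) with ASO1. The call with ASO1 was lost when ASO1 replicate 2, NCA replicate 1 or NCA replicate 2 was left out (-0.27, -0.24 and -0.28). Exons of ATF5 overlap those of MIR4751 on the same strand and of IL4I1 and NUP62 on the other, and whether counting used strand is not given in the sources used here.

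DDIT3 (ENSG00000175197) encodes CHOP, the factor of this pathway linked with cell death. It rose with both ASOs in IMR32 and SK-N-BE(2)c and with ASO10 in NGP. In IMR32 it stood at 111, 88.8, 92.3 and 112 with NCA, 176, 203, 239 and 185 with ASO1 and 176, 205, 208 and 222 with ASO2, with both ASO groups clear of the controls. It rose 1.98-fold and 2-fold, or by log2 0.98 (SE 0.11, limma adjusted p 9.2e-07) and 1.00 (SE 0.11, limma adjusted p 1.08e-06). In NGP the libraries gave 532, 588 and 439 with NCA, 589, 537 and 547 with ASO2 and 749, 784 and 746 with ASO10. With ASO2 they overlapped the controls and the value was 0.11 (SE 0.088, limma adjusted p 0.286), which ran from -0.0047 without NCA replicate 3 to 0.21 without NCA replicate 2, where it was called. With ASO10 they did not overlap, and the rise was 0.56 (SE 0.088, limma adjusted p 7.88e-06). SK-N-BE(2)c had 1139.5, 1269 and 1187 with NCA, 1426, 1275 and 1482 with ASO2 and 1786, 2386 and 2139 with ASO10. The ASO10 libraries were the highest there, with a rise of 0.80 (SE 0.078, limma adjusted p 1.03e-09). The rise with ASO2 was 0.22 (SE 0.078, limma adjusted p 0.0168). That call was lost on rescaling all libraries to one total (0.079, adjusted p 0.383) and without ASO2 replicate 1, ASO2 replicate 3 or NCA replicate 1 (0.20, 0.17 and 0.18). Exons of DDIT3 overlap AC022506.1 on the same strand and MARS and MBD6 on the other.

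CEBPB (ENSG00000172216), a C/EBP factor that can pair with ATF4, rose in all 6 comparisons. In NGP it was at 227 ± 44.8 (SD, n = 3) with NCA, 375 ± 9.75 with ASO2 and 311 ± 7.85 with ASO10. It was at 678 ± 36.2, 1000.03 ± 109 and 999.9 ± 72.2 in the same order in SK-N-BE(2)c, and no ASO library overlapped the controls in either line. The rises were 0.74 (SE 0.11, limma adjusted p 3.73e-06) and 0.47 (SE 0.11, limma adjusted p 0.000991) in NGP, and 0.56 (SE 0.077, limma adjusted p 3.28e-07) and 0.56 (SE 0.077, limma adjusted p 4.79e-07) in SK-N-BE(2)c. In IMR32 ASO1 libraries (510.5 to 557) lay above the controls (322 to 392), with a rise of 0.59 (SE 0.074, limma adjusted p 5.25e-06). ASO2 libraries (387 to 466) overlapped the controls at their low end, with a rise of 0.24 (SE 0.074, limma adjusted p 0.0157). That last call was lost without ASO2 replicate 2, NCA replicate 3 or NCA replicate 4 (0.19, 0.20 and 0.20).

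**Figure D2:**
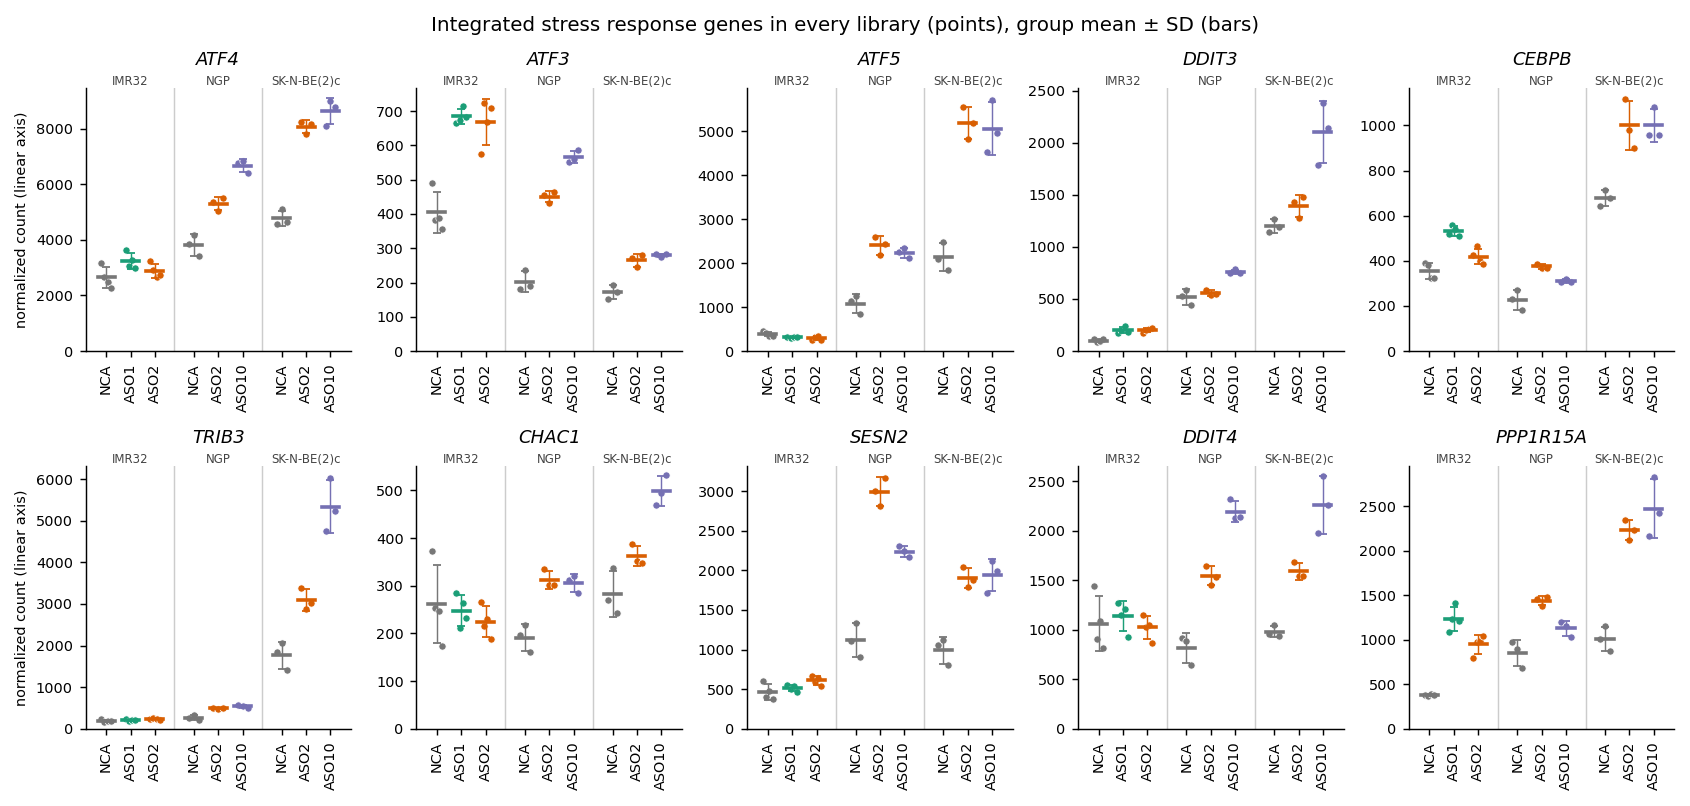
Normalized count (vertical axis, linear, from 0) of the 10 genes in each of the 30 libraries (points), with the group mean and SD (bars), by line and ASO. IMR32 was scaled apart from the other lines, so its levels are to be read within the line; all ASO points of PPP1R15A and ATF3 stand above the controls of their line.

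Among the effectors, PPP1R15A (ENSG00000087074), which encodes GADD34, the regulatory subunit that brings protein phosphatase 1 to eIF2alpha, had the largest rise of the 10 in IMR32. Its normalized count there was 379.9, 364, 388 and 379 with NCA, 1085, 1229.9, 1413 and 1215 with ASO1 and 796, 972, 986 and 1044 with ASO2. The control libraries lay close together, and the lowest ASO library, at 796, stood far above the highest of them. The rise was 3.25-fold with ASO1 (log2 1.70, SE 0.078, limma adjusted p 5.74e-12), which ranked 25th of 17309 genes by fold change, and 2.5-fold with ASO2 (log2 1.32, SE 0.078, limma adjusted p 9.06e-10), which ranked 73rd. The libraries of SK-N-BE(2)c gave 1004, 1152 and 877 with NCA, 2351, 2118 and 2236 with ASO2 and 2171, 2829 and 2423 with ASO10. Both ASO groups were clear of the controls, with rises of 1.15 (SE 0.083, limma adjusted p 1.13e-12) and 1.29 (SE 0.083, limma adjusted p 2.36e-13). NGP had 972, 901 and 686 with NCA, 1455, 1380.3 and 1478 with ASO2 and 1197, 1157 and 1026 with ASO10. There the ASO10 libraries stood just above the highest control, and the rises were 0.77 (SE 0.090, limma adjusted p 7.77e-08) with ASO2 and 0.41 (SE 0.090, limma adjusted p 0.000403) with ASO10. The latter was 0.26 without NCA replicate 3, still past the threshold. In that control group replicate 3 was the lowest library for 9 of the 10 genes.

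TRIB3 (ENSG00000101255), a pseudokinase that CHOP and ATF4 induce and that restrains them, gave the largest rise of the 10 with ASO10 in SK-N-BE(2)c. It stood at 1834, 2059 and 1417 with NCA, 3388, 2871 and 3023 with ASO2 and 4759.6, 6023 and 5247 with ASO10, so that the 3 groups formed 3 separate steps. The rise was 1.76-fold with ASO2 (log2 0.82, SE 0.091, limma adjusted p 6.12e-09) and 3.04-fold with ASO10 (log2 1.604, SE 0.091, limma adjusted p 2.07e-14). In NGP the values were 259, 329 and 217 with NCA, 493, 473 and 503 with ASO2 and 563, 553 and 497 with ASO10, without overlap with the controls. The rises there were 0.89 (SE 0.11, limma adjusted p 1.41e-07) and 1.02 (SE 0.11, limma adjusted p 1.65e-08). IMR32 libraries gave 228, 170.2, 182 and 179 with NCA, 224, 183, 199.997 and 197 with ASO1 and 240.3, 253, 234 and 217 with ASO2. NCA replicate 1 lay above every ASO1 library and within the ASO2 group, and the values were 0.087 (SE 0.092, limma adjusted p 0.523) with ASO1, not called, and 0.32 (SE 0.092, limma adjusted p 0.0106) with ASO2, called.

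CHAC1 (ENSG00000128965), an enzyme that breaks down glutathione, rose in the 4 comparisons of NGP and SK-N-BE(2)c and was called in neither comparison of IMR32; the difference from IMR32 was not tested. NGP libraries gave 197, 217 and 159.99 with NCA, 334, 302 and 301 with ASO2 and 313, 319.5 and 284 with ASO10. SK-N-BE(2)c had 271, 337 and 242 with NCA, 387, 352 and 348 with ASO2 and 469, 495 and 533 with ASO10. All ASO libraries were above the controls of their line, in SK-N-BE(2)c with ASO2 by a small gap to NCA replicate 2. The rises were 0.72 (SE 0.11, limma adjusted p 4.73e-06) and 0.68 (SE 0.11, limma adjusted p 1.08e-05) in NGP, and 0.37 (SE 0.10, limma adjusted p 0.00249) and 0.83 (SE 0.10, limma adjusted p 7.52e-08) in SK-N-BE(2)c. Rescaling took the ASO2 value in SK-N-BE(2)c to 0.23 (adjusted p 0.0527). In IMR32 the NCA libraries spread from 175 to 373 and enclosed all 8 ASO libraries (211 to 285 and 189 to 266). The differences of -0.039 (SE 0.16, limma adjusted p 0.881) and -0.18 (SE 0.16, limma adjusted p 0.405) were not called, with 95% confidence intervals of -0.36 to 0.29 and -0.51 to 0.14.

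SESN2 (ENSG00000130766), a leucine sensor that restrains mTORC1, gave the largest rise with ASO2 in NGP. It was at 1113, 1334 and 902 with NCA there, at 3001, 2812 and 3173 with ASO2 and at 2302, 2241 and 2167 with ASO10. ASO2 libraries were the highest, ASO10 libraries came next, and neither overlapped the controls. The rise was 2.71-fold with ASO2 (log2 1.44, SE 0.086, limma adjusted p 7.2e-13) and 2.03-fold with ASO10 (log2 1.02, SE 0.086, limma adjusted p 3.27e-10). The values of SK-N-BE(2)c were 1054, 1118 and 799.9 with NCA, 2039, 1790.3 and 1878 with ASO2 and 1719, 2121 and 1987 with ASO10. The ASO groups overlapped each other and not the controls, with rises of 0.95 (SE 0.089, limma adjusted p 2.18e-10) and 0.98 (SE 0.089, limma adjusted p 2.3e-10). IMR32 had 599, 405, 472 and 371 with NCA, 549, 504, 536 and 463 with ASO1 and 666, 591, 646 and 543 with ASO2, where NCA replicate 1 lay within or above the ASO groups. SESN2 rose with ASO2 (0.42, SE 0.11, limma adjusted p 0.00447). With ASO1 it was not called (0.17, SE 0.11, limma adjusted p 0.247), and without NCA replicate 1 the value was 0.31 and called.

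DDIT4 (ENSG00000168209), which encodes REDD1, another brake on mTORC1, was at 817 ± 149 (SD, n = 3) with NCA in NGP, 1544 ± 97.4 with ASO2 and 2191 ± 108 with ASO10. The means in SK-N-BE(2)c were 981 ± 60.4, 1589 ± 83.8 and 2262 ± 292 in that order. In both lines the 3 groups did not overlap, with ASO10 above ASO2 and ASO2 above NCA. The rises were 0.93 (SE 0.090, limma adjusted p 2.77e-09) and 1.44 (SE 0.090, limma adjusted p 1.28e-12) in NGP, and 0.70 (SE 0.073, limma adjusted p 2.59e-09) and 1.198 (SE 0.073, limma adjusted p 1.01e-13) in SK-N-BE(2)c. In IMR32 the controls ran from 810.3 to 1441 and overlapped ASO1 (926 to 1272) and ASO2 (868 to 1152). Neither difference was called (0.13, SE 0.13, limma adjusted p 0.495, and -0.022, SE 0.13, limma adjusted p 0.918), and the value with ASO1 was 0.29 and called without NCA replicate 1. That library was the highest of its group for 8 of the 10 genes. Replicate 1 was also the highest of its group for 6 genes with ASO1 and for 4 with ASO2, where it was the lowest for 4.

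The NESPR ASOs of a line differed from each other in part of the set. In NGP, ASO2 against ASO10 gave lower levels of ATF4 (-0.33, SE 0.059, limma adjusted p 2.9e-05), ATF3 (-0.33, limma adjusted p 0.00512), DDIT3 (-0.44, limma adjusted p 0.000112) and DDIT4 (-0.51, limma adjusted p 3.04e-05). It gave higher levels of SESN2 (0.42, limma adjusted p 0.000182), PPP1R15A (0.35, limma adjusted p 0.00156) and CEBPB (0.27, limma adjusted p 0.0407). The CEBPB call was lost without each of the 6 ASO libraries in turn, without the filter on low values, on rescaling and with DESeq2. These 4 lower and 3 higher of 10 stand beside 28% and 30.6% of all genes tested. In SK-N-BE(2)c, 4 of 10 were lower with ASO2 than with ASO10 (30.8% of all genes): TRIB3 (-0.78, SE 0.091, limma adjusted p 1.47e-08), DDIT3 (-0.59, limma adjusted p 2e-07), DDIT4 (-0.50, limma adjusted p 8.94e-07) and CHAC1 (-0.46, limma adjusted p 0.000259). ATF4 (-0.095) and PPP1R15A (-0.14) were not called there, but both were on rescaling (-0.21 and -0.25) and without ASO10 replicate 1 (-0.14 and -0.23), which brings the count to 6, and PPP1R15A also was with edgeR (-0.17, adjusted p 0.0491). DDIT3 and DDIT4 were lower with ASO2 in both lines. In IMR32, CEBPB (0.35, SE 0.074, limma adjusted p 0.00197) and PPP1R15A (0.38, SE 0.078, limma adjusted p 0.0013) were higher with ASO1 than with ASO2, 2 of 10 beside 9.17% of all genes. The other 8 were not called there. Of these, ATF4 was called on rescaling (0.22), SESN2 in a fit of the 2 groups alone (-0.25) and TRIB3 without ASO1 replicate 1 (-0.29). Their widest 95% confidence interval was that of CHAC1, -0.18 to 0.47, and their narrowest that of ATF4, -0.0042 to 0.34. For DDIT3 the interval of the difference between ASO1 and ASO2 was -0.24 to 0.21.

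Whether an ASO moved these genes by different amounts in NGP and SK-N-BE(2)c was tested in one fit of the 18 libraries, whose tables were scaled jointly. For ASO10, 3 of 10 genes differed (16.9% of all 14537 genes did). PPP1R15A rose more in SK-N-BE(2)c, by a log2 difference of 0.88 (SE 0.15, limma adjusted p 0.000332), as did TRIB3 (0.58, SE 0.17, limma adjusted p 0.0205), and ATF3 rose less (-0.78, SE 0.15, limma adjusted p 0.000767). For ASO2, 3 of 10 differed (16.7% of all genes). ATF3 rose less in SK-N-BE(2)c (-0.53, SE 0.15, limma adjusted p 0.0139), as did SESN2 (-0.49, SE 0.16, limma adjusted p 0.0348), while ATF4 rose more (0.28, SE 0.086, limma adjusted p 0.0258). Differences for ATF3 with either ASO and for PPP1R15A with ASO10 kept their call with each library left out. Those for ATF4, SESN2 and TRIB3 lost it without the filter on low values and in several of the 12 fits that left out a library. The ATF4 call was lost in 6 of them: without ASO2 replicate 2, NCA replicate 1 or NCA replicate 2 of NGP (0.25, 0.27 and 0.21), or without ASO2 replicate 1, NCA replicate 1 or NCA replicate 3 of SK-N-BE(2)c (0.27, 0.25 and 0.26). It was also lost on rescaling (0.22). The SESN2 call was lost in 8: without ASO2 replicate 1, ASO2 replicate 3, NCA replicate 1 or NCA replicate 3 of NGP (-0.48, -0.44, -0.49 and -0.34), or without ASO2 replicate 2, ASO2 replicate 3, NCA replicate 1 or NCA replicate 2 of SK-N-BE(2)c (-0.44, -0.48, -0.43 and -0.39). The TRIB3 call was lost in 4: without ASO10 replicate 3 or NCA replicate 2 of NGP (0.53 and 0.43), or without ASO10 replicate 2 or NCA replicate 3 of SK-N-BE(2)c (0.50 and 0.43). PPP1R15A with ASO2 was not called (0.38, adjusted p 0.081), but it was with edgeR (adjusted p 0.0312), with a replicate block (adjusted p 0.0443), without NCA replicate 3 of NGP (0.53) and without NCA replicate 2 of SK-N-BE(2)c (0.48). DDIT3 with ASO10 (0.25, adjusted p 0.215) was called without NCA replicate 3 of NGP (0.36). ASO1 was used in IMR32 alone and that table was scaled on its own, so no difference from IMR32 was tested.

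**Figure D3:**
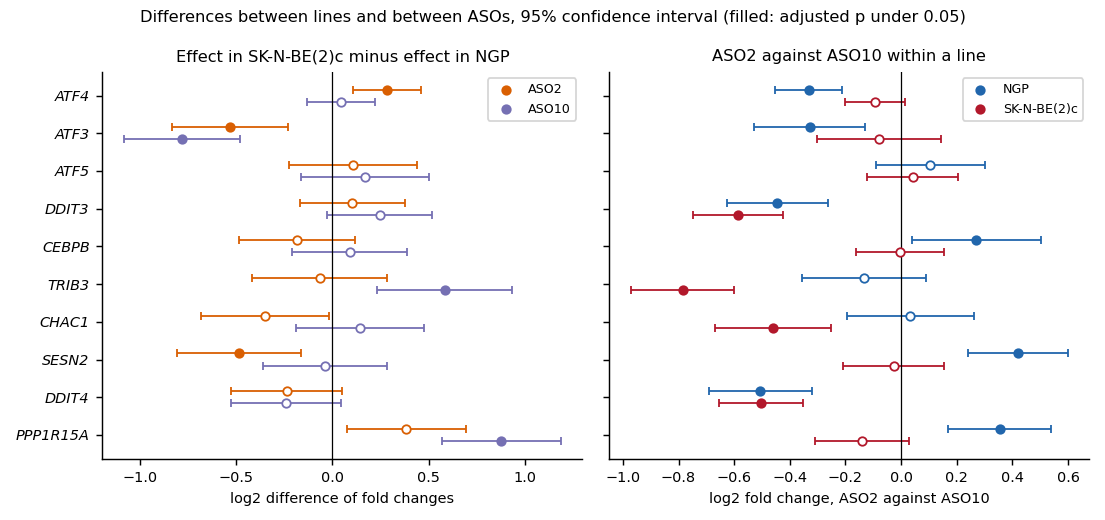
Left, log2 difference between the effect of an ASO in SK-N-BE(2)c and in NGP; right, log2 fold change of ASO2 against ASO10 within each line, both with 95% confidence intervals and filled points where the limma adjusted p was under 0.05. ATF3 lies left of 0 and PPP1R15A right of 0 in the left panel, and DDIT3 and DDIT4 lie left of 0 for both lines in the right panel.

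The lines started from different levels. With NCA, 8 of the 10 genes were higher in SK-N-BE(2)c than in NGP and 1 was lower, beside 37.3% and 39.8% of all genes. TRIB3 differed most (6.59-fold, log2 2.72, SE 0.12, limma adjusted p 3.41e-16), followed by CEBPB (1.59, SE 0.10, limma adjusted p 5.73e-13), DDIT3 (1.21, SE 0.094, limma adjusted p 1.78e-11) and ATF5 (1.00, SE 0.11, limma adjusted p 1.9e-08). SESN2 was not called (-0.17, SE 0.11, limma adjusted p 0.168), but it was lower without NCA replicate 3 of NGP (-0.31, adjusted p 0.00983). ATF3 was lower (-0.23, SE 0.10, limma adjusted p 0.0447), with overlapping libraries, and its call was lost without the filter, under edgeR, with a replicate block (adjusted p 0.0539) and without NCA replicate 2 of NGP or NCA replicate 1 or 3 of SK-N-BE(2)c. Those of PPP1R15A and DDIT4 (0.25 and 0.28) were lost without NCA replicate 3 of NGP (0.10 and 0.12) and without NCA replicate 2 of SK-N-BE(2)c (0.15 and 0.23). That of PPP1R15A was also lost without NCA replicate 1 of SK-N-BE(2)c (0.25), without the filter and on rescaling (0.22).

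Levels of different genes can be set side by side per kilobase of exon. On that scale ATF4 with NCA was at 1054 ± 149 normalized counts per kilobase in IMR32 (SD, n = 4), 1520.4 ± 154 in NGP (SD, n = 3) and 1899.9 ± 112 in SK-N-BE(2)c. IMR32 was scaled apart, so its value is not to be set against those of the other lines. The lowest of the 10 with NCA was TRIB3 in IMR32 (55.3 ± 7.5) and ATF3 in NGP (50.1 ± 7.59) and SK-N-BE(2)c (42.6 ± 5.19). In IMR32, PPP1R15A ranked 7 of 10 with NCA (122 ± 3.22) and next after ATF4 and DDIT4 with ASO1 (399.5 ± 43.7). DDIT3 (398 ± 57.7), DDIT4 (397 ± 72.5), ATF5 (365 ± 74) and SESN2 (323 ± 62.4) with NCA in NGP lay within their spread of each neighbour in the order.

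Other target genes of ATF4 were mostly higher in NGP and SK-N-BE(2)c and more often lower than higher in IMR32. A further 26 ATF4 target genes were tested (amino acid synthesis and transport, transfer RNA charging and others). In NGP, 22 rose and 4 fell with ASO2 (30.6% and 28.1% of all genes did). With ASO10 there, 23 rose and none fell (26.8% and 27.6%). In SK-N-BE(2)c 18 rose and 6 fell with ASO2 (33.6% and 33.4%), and 24 rose and 1 fell with ASO10 (27.8% and 31.1%). In IMR32 2 rose and 11 fell with ASO1 (13.6% and 14.4%), and 3 rose and 14 fell with ASO2 (17.6% and 14.8%). The medians of the list were -0.22 and -0.23 in IMR32, 0.45 and 0.63 in SK-N-BE(2)c, and 0.72 and 0.63 in NGP. On rescaling, the median of all genes in SK-N-BE(2)c with ASO2 moved from -0.016 to -0.15 and the share of higher calls among all calls from 50.2% to 38.4%. No gene of the set of 10 changed direction on rescaling in the 6 comparisons against NCA.

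Within that list, STC2, a secreted glycoprotein induced by ER stress, rose with ASO2 in NGP to 1171 ± 52.2 against 267 ± 27.8 (mean ± SD, n = 3), a log2 fold change of 2.13 (limma adjusted p 7.07e-16). CTH, which makes cysteine, rose by 1.40 (limma adjusted p 3.4e-10) there. GDF15, a stress-induced cytokine, led the rises with ASO10, at 1.97 (limma adjusted p 1.27e-10) in NGP and 1.61 (limma adjusted p 1.28e-12) in SK-N-BE(2)c. SLC3A2, the heavy chain of amino acid exchangers, rose with ASO2 in SK-N-BE(2)c to 6462 ± 209 against 2528 ± 60.4, or 1.35 (limma adjusted p 1.36e-17). The mitochondrial enzymes ALDH1L2 and PCK2 fell with ASO2 in SK-N-BE(2)c (log2 -1.35, limma adjusted p 1.17e-14, and -0.80, limma adjusted p 3.71e-10) and in NGP (-0.50, limma adjusted p 1.06e-05, and -0.34, limma adjusted p 0.00831). In IMR32, SLC7A11, the cystine transporter subunit, fell with ASO1 from 2032 ± 154 (SD, n = 4) to 1264 ± 235, or -0.70 (limma adjusted p 0.000353), and PCK2 fell with ASO2 (-0.94, limma adjusted p 1.84e-05). STC2, unlike in NGP, fell with ASO2 in IMR32 (-1.24, limma adjusted p 0.0134), at low means of 8.09 against 19.4. SQSTM1, an autophagy receptor, rose in IMR32 with ASO1 (1.1805, limma adjusted p 5.74e-12), and GDF15 rose with ASO2 (1.67, limma adjusted p 1.76e-05), at low means of 59.8 against 18.4.

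**Figure D4:**
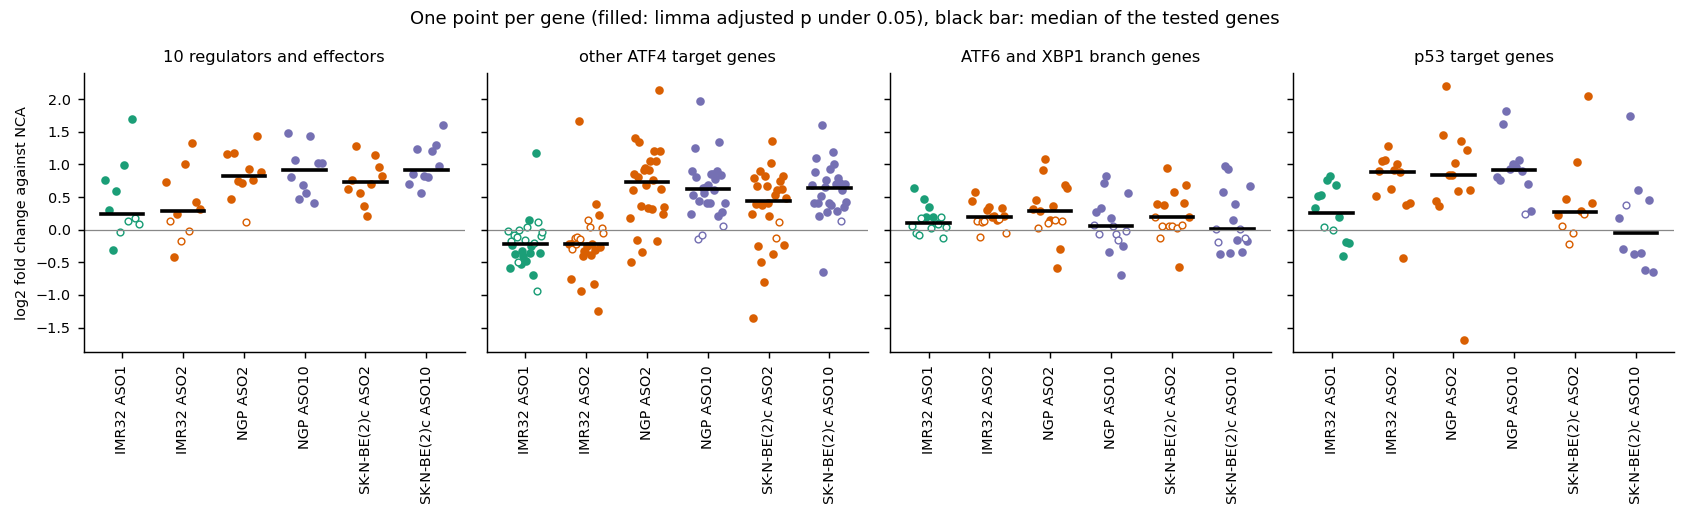
Log2 fold change against NCA (vertical axis) of every tested gene of 4 lists in the 6 comparisons, with filled points where the limma adjusted p was under 0.05 and a black bar at the median. The bar of the other ATF4 targets lies between 0.45 and 0.72 in NGP and SK-N-BE(2)c and at -0.22 and -0.23 in IMR32.

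Upstream of ATF4, the 20 genes for eIF2 kinases, eIF2, eIF2B and the eIF2alpha phosphatases held genes called in each direction. With ASO2, 8 rose and 7 fell in NGP (30.6% and 28.1% of all genes did) and 9 rose and 8 fell in SK-N-BE(2)c (33.6% and 33.4%). With ASO10, 6 rose and 6 fell in NGP (26.8% and 27.6% of all genes), and 8 rose and 6 fell in SK-N-BE(2)c (27.8% and 31.1%). In IMR32, 3 rose and 2 fell with ASO1 (13.6% and 14.4% of all genes), and 8 rose and 2 fell with ASO2 (17.6% and 14.8%; 6 called in all without the filter on low values, in place of 10). The kinases EIF2AK3 (PERK, of the endoplasmic reticulum) and EIF2AK1 (HRI, which senses heme) led the rises with ASO2 in SK-N-BE(2)c and NGP, and PPP1CC and PPP1R15B, parts of phosphatases, led those in IMR32. EIF2AK3 rose by 0.71 (limma adjusted p 4.65e-08) in NGP and 0.80 (limma adjusted p 2.77e-08) in SK-N-BE(2)c, and EIF2AK1 by 0.69 (limma adjusted p 2.9e-10) and 0.76 (limma adjusted p 3.42e-13). With ASO10 the rises of this list were led by EIF2S2 and EIF2B5 in both lines, and OMA1, a mitochondrial protease that relays stress to HRI, fell most (-0.83, limma adjusted p 0.00606, and -1.23, limma adjusted p 0.000117). OMA1 means were low, at 31.8 with ASO10 against 56.9 with NCA in NGP and 30.8 against 74.7 in SK-N-BE(2)c.

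The ATF6 and XBP1 branch of the unfolded protein response, which enlarges folding capacity in the endoplasmic reticulum, was represented by 15 genes. With ASO2, 9 rose and 2 fell in NGP (30.6% and 28.1% of all genes) and 7 rose and 1 fell in SK-N-BE(2)c (33.6% and 33.4%). With ASO10, 6 rose and 3 fell in NGP (26.8% and 27.6%) and 6 rose and 5 fell in SK-N-BE(2)c (27.8% and 31.1%). In IMR32, 5 rose with ASO1 and 9 with ASO2 (13.6% and 17.6%), and none was called lower (14.4% and 14.8%). The list's median was 0.10 and 0.19 in IMR32, 0.29 and 0.050 in NGP, and 0.19 and 0.0035 in SK-N-BE(2)c. HERPUD1, a part of the degradation machinery that ATF4 also induces, was among the 2 largest rises in 5 of the 6 comparisons, from 0.47 (limma adjusted p 4.34e-05) in IMR32 with ASO1 to 1.09 (limma adjusted p 7.97e-14) in NGP with ASO2. The chaperone HSP90B1 fell with ASO10 in NGP (-0.34, limma adjusted p 1.1e-05) and in SK-N-BE(2)c (log2 -0.36, limma adjusted p 1.26e-05).

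Downstream of CHOP, 8 genes of apoptosis and related targets were tested in NGP and IMR32 and 7 of them in SK-N-BE(2)c. In NGP 5 rose and 1 fell with each ASO (30.6% and 28.1% of all genes with ASO2, and 26.8% and 27.6% with ASO10). For SK-N-BE(2)c, 3 rose and 2 fell with ASO2 (33.6% and 33.4%), and 2 rose and 2 fell with ASO10, near the share of all genes (27.8% and 31.1%). In IMR32 1 rose and 2 fell with ASO1 (13.6% and 14.4%) and 3 rose and 1 fell with ASO2 (17.6% and 14.8%). BCL2, which protects from apoptosis, fell in all 6, from -0.26 (limma adjusted p 0.0242) in NGP with ASO10 to -1.13 (limma adjusted p 5.21e-10) in SK-N-BE(2)c with ASO2. BBC3 (PUMA), which promotes apoptosis, rose in all 6, from 0.56 (limma adjusted p 0.00353) in IMR32 with ASO1 to 1.505 (limma adjusted p 5.26e-11) in SK-N-BE(2)c with ASO10. BCL2L11 (BIM) rose with ASO2 in NGP (1.13, limma adjusted p 4.87e-11). Other targets of the list fell. TNFRSF10B was lower with ASO1 in IMR32 (-0.37, limma adjusted p 1.88e-05). ERO1A was lower in SK-N-BE(2)c with ASO2 (-0.23, limma adjusted p 0.00241) and ASO10 (-0.33, limma adjusted p 4.92e-05).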

How the data were processed

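RNA was sequenced from 30 libraries, with either a stranded total RNA kit or a stranded mRNA kit per the labels' protocols, which do not say which library had which. The submitters' processing notes name FastQC 0.11.8, cutadapt 1.18, STAR 2.6.0, HTSeq 0.6.1 and DESeq2 1.42.0 and the builds hg19 and GRCh37; the settings and whether strand was used are not given in the sources used here. The deposited values are a normalized signal, gene counts that the authors divided by a size factor per library, per the labels, with 1 table per line. Steps between low values gave whole reads for 100% of values (within 0.01 of a read). The median ratio of a library to the geometric mean library was 1.0069 to 1.007 in IMR32 and 1.012 in every library of NGP and SK-N-BE(2)c pooled, so the last 2 were treated as scaled jointly. In IMR32 174 entries without a gene ID (0.172% of values) were left out, and 0 columns were unused.

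Log2(value + 1) was fitted with limma 3.58.1 in R 4.3.3 (1 model per line, and 1 joint model of NGP and SK-N-BE(2)c; moderated variances with a trend) over genes with a mean of at least 10; this scale understates changes of low genes. Calls are at a Benjamini-Hochberg adjusted p under 0.05 over all genes tested. The code was tested on simulated data. On the recovered reads, edgeR 4.0.16 (quasi-likelihood) called 4930 and 5639 genes in IMR32 with ASO1 and ASO2, 8674 and 8287 in NGP with ASO2 and ASO10 and 9207 and 8300 in SK-N-BE(2)c, against 4850, 5607, 8477, 7850, 9078 and 7981 with limma. DESeq2 1.42.0, pseudocount 5, no filter, rescaling to the same total, a replicate block, fits of 2 groups and leaving out each library were the others. Exact permutation tests are two-sided. Upstream sequences are RefSeq's on GRCh38.p14, matched by symbol for 10 of 10 genes; exon lengths and overlaps are from GENCODE release 29. The genes and lists were chosen with earlier results of these data known. All 10 genes are named. From each list, genes were drawn from the up to 2 with the largest called rise and 2 with the largest called fall per comparison. Not all of those are named in the text. Another marker of the adrenergic list is not reported here and was left out of its sums.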

Additional observations from a re-analysis of the deposited data

Results flagged for a closer look

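ATF5 in IMR32 with ASO1 had 1 library far from the rest of its group: replicate 2 was the lowest of 4, at a normalized count of 288, while the others lay between 317 and 322. This gap passed Dixon's limit, which chance passes in about 1 in 20 groups; 30 groups of 4 libraries were examined for it and 1 was found.

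Effects of the same ASO differed between SK-N-BE(2)c and NGP by a direct test for 3 genes with each ASO. With ASO2 the log2 difference (SK-N-BE(2)c minus NGP) was 0.28 for ATF4 (limma adjusted p 0.0258), -0.53 for ATF3 (limma adjusted p 0.0139) and -0.49 for SESN2 (limma adjusted p 0.0348). With ASO10 it was -0.78 for ATF3 (limma adjusted p 0.000767), 0.58 for TRIB3 (limma adjusted p 0.0205) and 0.88 for PPP1R15A (limma adjusted p 0.000332).

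ATF5 moved in opposite directions with ASO2 across lines: every IMR32 library with ASO2 was below every control (log2 fold change -0.42), while every NGP and SK-N-BE(2)c library with ASO2 was above its controls (1.176 and 1.28). The difference between IMR32 and the other lines was not tested, since the tables were scaled apart.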

How the results depend on the processing

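Of the 60 fold changes against NCA (10 genes in 6 comparisons), all kept their direction and their side of the threshold with a pseudocount of 5, with no filter on low values, in fits of 2 groups only, and with edgeR and DESeq2 on the recovered reads. Rescaling to the same total removed 2 calls, both given with the results. With 1 library left out at a time, 379 values kept direction and side, 10 lost their call, 4 gained one and 7 changed sign, and none of those 7 was a called value. Sign changes came in these ranges: CHAC1 -0.22 to 0.15 and -0.36 to 0.0057 with ASO1 and ASO2 and DDIT4 -0.14 to 0.14 with ASO2 in IMR32, and DDIT3 -0.0047 to 0.21 with ASO2 in NGP. Between ASOs, none of them called, the ranges were DDIT3 -0.10 to 0.041 and ATF3 -0.033 to 0.078 in IMR32, CHAC1 -0.018 to 0.067 in NGP, and ATF5 -0.036 to 0.13, CEBPB -0.086 to 0.068 and SESN2 -0.11 to 0.040 in SK-N-BE(2)c. On rescaling, DDIT3 in IMR32, CHAC1 in NGP and ATF5 in SK-N-BE(2)c came to 0.035, -0.026 and -0.071 between ASOs. Uncalled differences between lines ranged over -0.014 to 0.28 (ATF5) and -0.22 to 0.074 (TRIB3) with ASO2, and -0.023 to 0.12 (ATF4), -0.047 to 0.24 (CEBPB) and -0.19 to 0.10 (SESN2) with ASO10. The count of genes with a different ASO2 effect between lines was 3 as reported, 1 without the filter, and 1 to 3 with a library left out. Elsewhere the share of higher calls moved on rescaling from 41.8% to 59.8% (ASO1 against ASO2 in IMR32), from 52.9% to 42.2% (ASO2 against ASO10 in SK-N-BE(2)c, where the median of all genes shifted by -0.11) and from 52.5% to 32.9% (ASO2 between lines). The labels do not tell what the replicate numbers stand for, and libraries of the same number did not deviate together for every number in any of 9 pairs of groups (between ASO1 and NCA in IMR32 correlations ran from 0.055 to 0.32). A replicate block brought the calls between ASO1 and ASO2 in IMR32 from 2 to 6, added 3 calls against NCA in IMR32 (SESN2 and DDIT4 with ASO1, ATF4 with ASO2) and removed none against NCA. Over all genes it brought the calls against NCA in IMR32 from 4850 to 6609 with ASO1 and from 5607 to 7419 with ASO2. In the joint fit it added PPP1R15A with ASO2 between lines and removed ATF3 between the controls. The lowest count of any of these genes in a library was 72 reads, and whether depth limited the uncalled values was not tested.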

Other observations

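Target genes of p53, which share the stress-induced SESN2 with this pathway, were mostly called higher in IMR32 and NGP. Of 12 tested in IMR32, 7 rose and 3 fell with ASO1 (13.6% and 14.4% of all genes did) and 11 rose and 1 fell with ASO2 (17.6% and 14.8%). In NGP 11 rose and 1 fell with ASO2 (30.6% and 28.1%), and 11 rose and none fell with ASO10 (26.8% and 27.6%). Of 10 tested in SK-N-BE(2)c, 6 rose and none fell with ASO2 (33.6% and 33.4%), and 4 rose and 5 fell with ASO10 (27.8% and 31.1%). CDKN1A, the cell cycle inhibitor p21, rose in NGP to 6261 ± 327 against 2311 ± 291 (mean ± SD, n = 3) with ASO2 and 7085 ± 444 against 2311 ± 291 with ASO10, or by 1.44 (limma adjusted p 1.37e-14) and 1.62 (limma adjusted p 1.17e-15). In IMR32 FDXR, a mitochondrial reductase, rose with ASO2 by 1.29 (limma adjusted p 2.07e-07). The medians of the list were 0.26 and 0.89 in IMR32, 0.84 and 0.91 in NGP, and 0.27 and -0.058 in SK-N-BE(2)c. In the joint fit of NGP and SK-N-BE(2)c, 12 genes of this list were tested for a difference of effects (SK-N-BE(2)c minus NGP). With ASO2 it was called positive for 2 and negative for 7 (16.7% of all genes differed), with a median of -0.26. With ASO10 it was called positive for none and negative for 8 (16.9% of all genes differed), with a median of -0.79. No difference from IMR32 was tested for this list.

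Of the partners and paralogs of the 10 genes, 17 were tested in IMR32, where 4 rose and 5 fell with ASO1 and 4 rose and 3 fell with ASO2. Of 16 tested in NGP, 10 rose and 4 fell with ASO2 and 7 rose and 3 fell with ASO10, and of 16 tested in SK-N-BE(2)c, 7 rose and 5 fell with ASO2 and 5 rose and 7 fell with ASO10, beside the shares of all genes just given. CEBPG, a C/EBP factor that pairs with ATF4, rose in NGP with ASO2 (0.74, limma adjusted p 4.84e-11), and CEBPA rose in IMR32 with ASO1 (0.90, limma adjusted p 0.00018) and ASO2 (0.69, limma adjusted p 0.00195). CEBPD rose with ASO10 in NGP (1.41, limma adjusted p 3.81e-07). In SK-N-BE(2)c, where its mean with NCA was only 3.73, CEBPD rose with ASO2 (1.60, limma adjusted p 0.000733) and ASO10 (3.00, limma adjusted p 1.91e-07). CEBPZ fell with ASO2 in NGP (-1.08, limma adjusted p 1.23e-12) and SK-N-BE(2)c (-1.19, limma adjusted p 2.00e-14). It is counted in this list by its C/EBP name, but it is not a bZIP factor or a paralog of CEBPB. CREB1, the cyclic AMP response factor, fell with both ASOs in NGP (-0.55, limma adjusted p 9.1e-07, and -0.62, limma adjusted p 2.02e-07) and SK-N-BE(2)c (log2 -1.12, limma adjusted p 1.1e-12, and -0.81, limma adjusted p 1.27e-09) and with ASO1 in IMR32 (-0.48, limma adjusted p 5.76e-07).

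For each gene of the set with a called log2 fold change of at least 1, the genes nearest to it over the 6 comparisons against NCA were taken by root mean square difference, as a description. Those nearest to PPP1R15A were MIR22HG, FOSB and ZFAND2A (0.25 for MIR22HG), and those nearest to ATF3 were TMEM70, HBEGF and CDKN1A (0.16 for TMEM70). DDIT3 had RPL13P5, FBXL22 and JUN (0.20 for RPL13P5), and ATF5 had ANKMY1, ENSG00000271862 and PYGB (0.14 for ANKMY1). TRIB3 had MIR762HG, PIGV and GET4 (0.13 for MIR762HG). SESN2 had CHST3, HNRNPCP2 and TCTN3 (0.13 for CHST3), and DDIT4 had ZNF568, ASGR1 and ENSG00000232611 (0.061 for ZNF568).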
